A study of Mus musculus with 32 samples.

Results

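The comparison described here set mouse embryonic fibroblasts (MEFs) that carried ACLY-Cyto against MEFs that carried ACLY WT, both kept for 24 h in medium with 1 mM glucose. It rested on 4 Cyto and 4 WT libraries of 32 samples in all, and on 12053 genes with a symbol. All cells were Acly knockout MEFs, so the controls shared the deletion. Cyto cells expressed mCherry-tagged human ACLY to which a nuclear export sequence had been added, Nuc cells the tagged protein with extra nuclear import sequences, WT cells the tagged protein without either sequence, and KO cells mCherry alone in the same vector. The labels did not say whether a construct had been introduced more than once, nor whether the 4 samples of a group came from separate cultures. The p-values therefore measure the spread between samples within groups, which may be technical. In 1 mM glucose that spread was estimated over all 16 libraries, those of Nuc and KO cells included. Libraries in 1 mM glucose formed batch 1 and those in 10 mM glucose batch 2.

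ATP citrate lyase (ACLY) cleaves citrate exported from mitochondria into acetyl-CoA and oxaloacetate, and it is found in both the cytosol and the nucleus. Cytosolic acetyl-CoA feeds the synthesis of sterols and fatty acids, and nuclear acetyl-CoA is a substrate of histone acetylation. Fibroblasts are the main makers of fibrillar collagen, which passes through the endoplasmic reticulum (ER) on its way out of the cell. The SREBP proteins switch on sterol genes when ER sterol is low, the unfolded protein response switches on ER chaperones, and ATF4 switches on amino acid uptake and synthesis when translation initiation is restrained.

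Levels are given on a log2 scale of counts adjusted for library size (CPM), in the order of libraries 1 to 4, and fold changes are Cyto over WT on that scale with their standard error (SE). Differences were tested with limma across all 12053 genes, and a gene was called when its Benjamini-Hochberg adjusted p was under 0.05. Of all genes, 6418 were called (53.2%), 3099 higher in Cyto cells (25.7%) and 3319 lower (27.5%). A change of at least 2-fold was reached by 1071 called genes (8.89%), 590 of them higher (4.9%) and 481 lower (3.99%). The median log2 fold change over all genes was -0.02, and in 5348 genes (44.4%) the Cyto and WT libraries did not overlap. With more than every other gene called, the counts of each gene group below are read against these shares.

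The Acly transcript did not pass the test between Cyto and WT cells. Acly read 10.55, 10.55, 10.50 and 10.41 in Cyto libraries and 10.68, 10.44, 10.59 and 10.56 in WT libraries, and the 2 ranges overlapped. The log2 fold change of Acly was -0.06 ± 0.07 (SE; limma adjusted p = 0.425), but 0.27 under quantile normalization (limma adjusted p = 0.0214). Acly averaged 8.97 ± 0.08 in Nuc libraries and 5.35 ± 0.10 in KO libraries (SD, n = 4 each). Reads of the human transgene and of the mouse gene could not be told apart in this value. Libraries of a group correlated at 0.986 to 0.989 in Cyto cells and at 0.970 to 0.990 in WT cells. WT library 2 stood apart from the other WT libraries, whose correlations among themselves were 0.988 to 0.990, while Cyto against WT libraries correlated at 0.924 to 0.949. All 12 fibroblast markers were listed, and their summed level was 35190 to 38520 CPM in Cyto libraries and 59250 to 68170 CPM in WT libraries. Singly, 7 of the 12 fell, 2 rose (Dcn and Postn) and 3 did not pass, and the sum rests largely on its most abundant members, such as Fn1 and Col1a1. Of 10 epithelial markers only Krt19 was listed, at 3.73 to 4.86 CPM in Cyto libraries and 21.1 to 41.4 CPM in WT libraries. In bulk RNA, a lower level per cell and fewer cells of a type cannot be told apart.

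**Figure D1:**
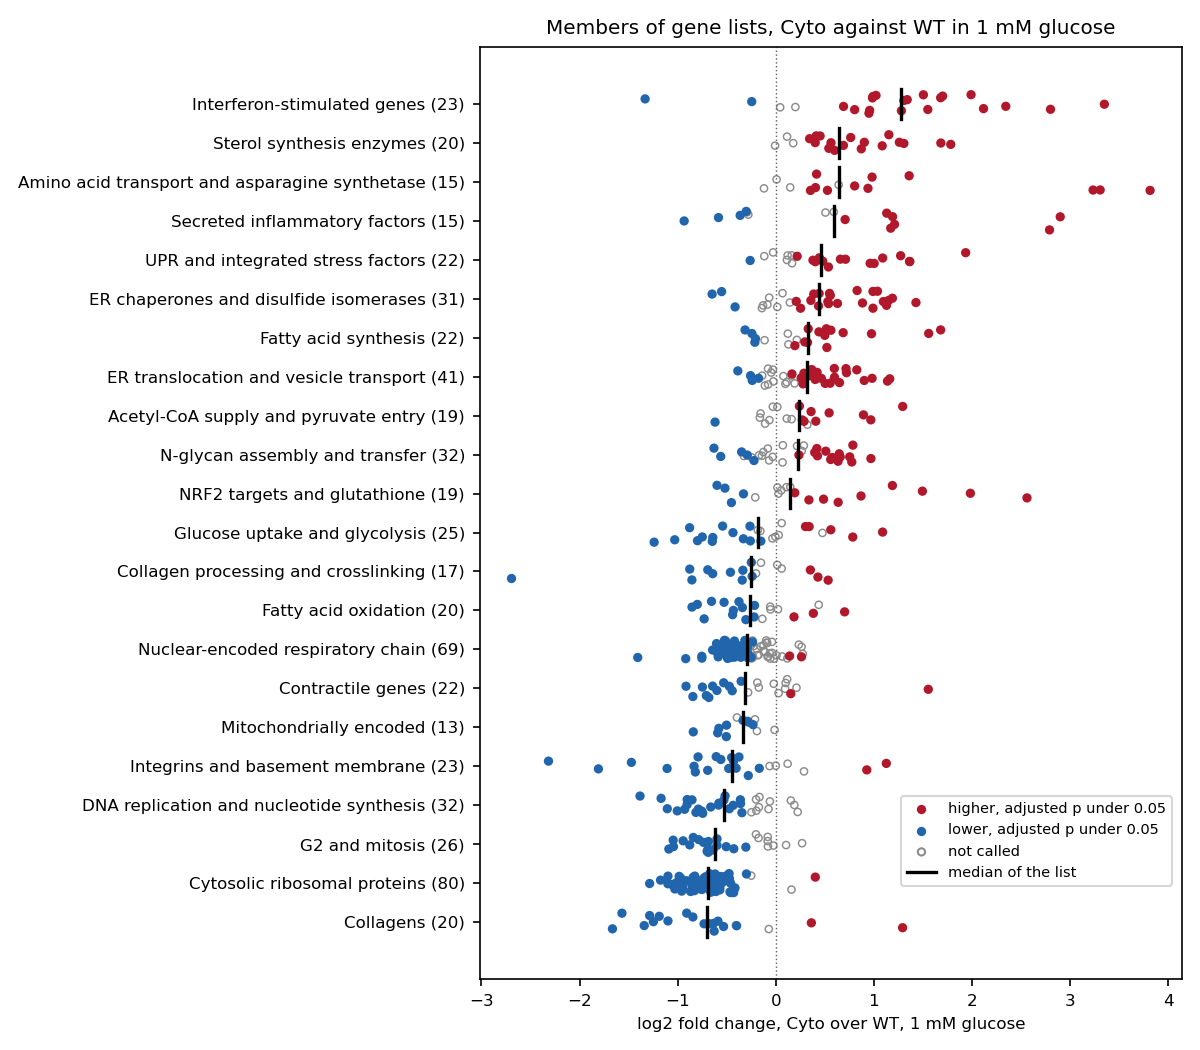
Log2 fold change of Cyto over WT in 1 mM glucose (x axis) for the members of 22 gene lists (y axis, number of measured members in brackets), with 1 point per gene and a bar at each list's median. Interferon-stimulated genes have the highest median, 1.28, and collagens the lowest, -0.71.

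Sterol synthesis and sterol uptake genes were higher in Cyto cells. Of 20 enzymes from acetyl-CoA to cholesterol, 17 rose and none fell, with a median log2 fold change of 0.64; Acat2, Mvd and Dhcr7 did not pass the test. Fdps, the synthase of farnesyl diphosphate, read 8.4, 8.14, 8.29 and 8.33 in Cyto libraries and 6.43, 6.99, 6.18 and 6.43 in WT libraries. Every Cyto library lay above every WT library, and Fdps was 3.44-fold higher (log2 1.78 ± 0.12 SE, limma adjusted p = 2.1e-09). Lss, which closes squalene epoxide into lanosterol, had a log2 fold change of 1.68 ± 0.15 and Cyp51, the lanosterol demethylase, one of 1.15 ± 0.07. Nsdhl, a later demethylation enzyme, rose by 1.31 ± 0.12 and Pmvk, which phosphorylates phosphomevalonate, by 1.26 ± 0.14. In KO libraries Fdps, Lss and Cyp51 averaged 8.37, 6.84 and 8.11, against 8.29, 6.69 and 8.03 in Cyto libraries. Nsdhl and Pmvk averaged 7.06 and 4.67 in KO libraries against 5.14 and 3.59 in Cyto libraries. For all these enzymes the WT libraries had the lowest mean of all groups.

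Among 14 genes of SREBP control and cholesterol uptake, 8 rose and 4 fell, with a median of 0.53. Insig1, an ER anchor of the SREBP escort and itself an SREBP target, read 7.01, 6.73, 6.92 and 7.11 in Cyto libraries and 5.54, 5.23, 5.40 and 5.59 in WT libraries, a log2 fold change of 1.51 ± 0.08. In Nuc and KO libraries Insig1 lay at 5.24 to 5.32 and 5.72 to 5.83, so the Cyto libraries were the highest of the 4 groups. Lrp8, a lipoprotein receptor, rose by 2.13 ± 0.18, and Npc1, a lysosomal cholesterol exporter, by 0.66 ± 0.06. The transcription factor genes differed in direction: Srebf2 rose by 0.52 ± 0.09 and Srebf1 fell by 0.37 ± 0.09 on the log2 scale. Mbtps1, the first SREBP protease, fell by 0.69 ± 0.06. Of 9 LXR targets and efflux genes 4 rose and 2 fell, with a median of -0.09, and Pltp, a phospholipid transfer protein, fell by 1.42 ± 0.07.

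Fatty acid synthesis genes were mostly higher. Of 22 synthesis, elongation and activation genes 14 rose and 4 fell, with a median of 0.33. The acyl-CoA synthetase gene Acsl4 read 7.28, 7.55, 7.43 and 7.47 in Cyto libraries against 5.79, 5.51, 5.84 and 5.88 in WT libraries, and was 3.21-fold higher (log2 1.68 ± 0.08, limma adjusted p = 5.12e-11). The elongase genes Elovl7, Elovl6 and Elovl5 rose by 1.56 ± 0.13, 0.98 ± 0.11 and 0.69 ± 0.07, and Acsl3 by 0.56 ± 0.06. Fasn, the fatty acid synthase itself, was slightly lower (log2 -0.24 ± 0.09, limma adjusted p = 0.0322). It read 8.45, 8.24, 8.06 and 8.13 in Cyto libraries and 8.50, 8.53, 8.43 and 8.4 in WT libraries. Fasn did not pass under quantile normalization (limma adjusted p = 0.0581) or without Cyto library 2, 3 or 4 (0.0523, 0.112 and 0.0883). Nor did it pass without WT library 1 or 2 (limma adjusted p = 0.0673 and 0.0522). Dgat2, which makes triglyceride, rose by 2.07 ± 0.10, while in the list of 17 lipid droplet genes 5 rose and 5 fell. Fatty acid oxidation ran the other way, with 3 of 20 genes higher and 12 lower and a median of -0.26. Cpt1a, the carnitine transferase that admits long-chain fatty acids to mitochondria, fell by 0.80 ± 0.10, and Cpt2, its inner-membrane partner, fell by 0.85 ± 0.09.

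Of 19 genes of acetyl-CoA supply and pyruvate entry, 9 rose and 1 fell, with a median of 0.24 (without WT library 1, 5 rose). Acss2, which makes acetyl-CoA from acetate, read 3.78, 3.16, 3.52 and 3.77 in Cyto libraries against 2.58, 2.44, 2.46 and 2.87 in WT libraries (log2 0.97 ± 0.14), and 5.54 to 5.68 in KO libraries. Pdha1, a subunit of pyruvate dehydrogenase, rose by 0.54 ± 0.04, and so did the genes of 2 kinases that switch this enzyme off, Pdk1 by 0.89 ± 0.12 and Pdk4 by 1.29 ± 0.19. Glycolysis genes were mostly lower: 5 of 25 rose and 13 fell, with a median of -0.18. Tpi1, a triose isomerase, read 7.61, 7.40, 7.43 and 7.51 in Cyto libraries against 8.31, 8.70, 8.17 and 8.27 in WT libraries, and no Cyto library reached the lowest WT library (log2 -0.88 ± 0.09, limma adjusted p = 3.17e-07). Gapdh, a glycolytic dehydrogenase, fell by 1.03 ± 0.08 and Pfkm, a phosphofructokinase subunit, by 0.80 ± 0.06, and Slc2a3, a glucose carrier, fell by 1.24 ± 0.15. Slc16a1, a carrier of lactate and pyruvate, rose by 1.09 ± 0.08 and Hk2, a hexokinase, by 0.56 ± 0.08. In the pentose phosphate list 4 of 9 genes rose and 3 fell; Rpia, the ribose phosphate isomerase, rose by 1.26 ± 0.11 and G6pdx, the NADPH-forming entry enzyme, by 0.69 ± 0.09. Of 20 TCA cycle genes 4 rose and 8 fell, and Suclg1, a succinyl-CoA ligase subunit, had the highest value at 0.81 ± 0.09.

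**Figure D2:**
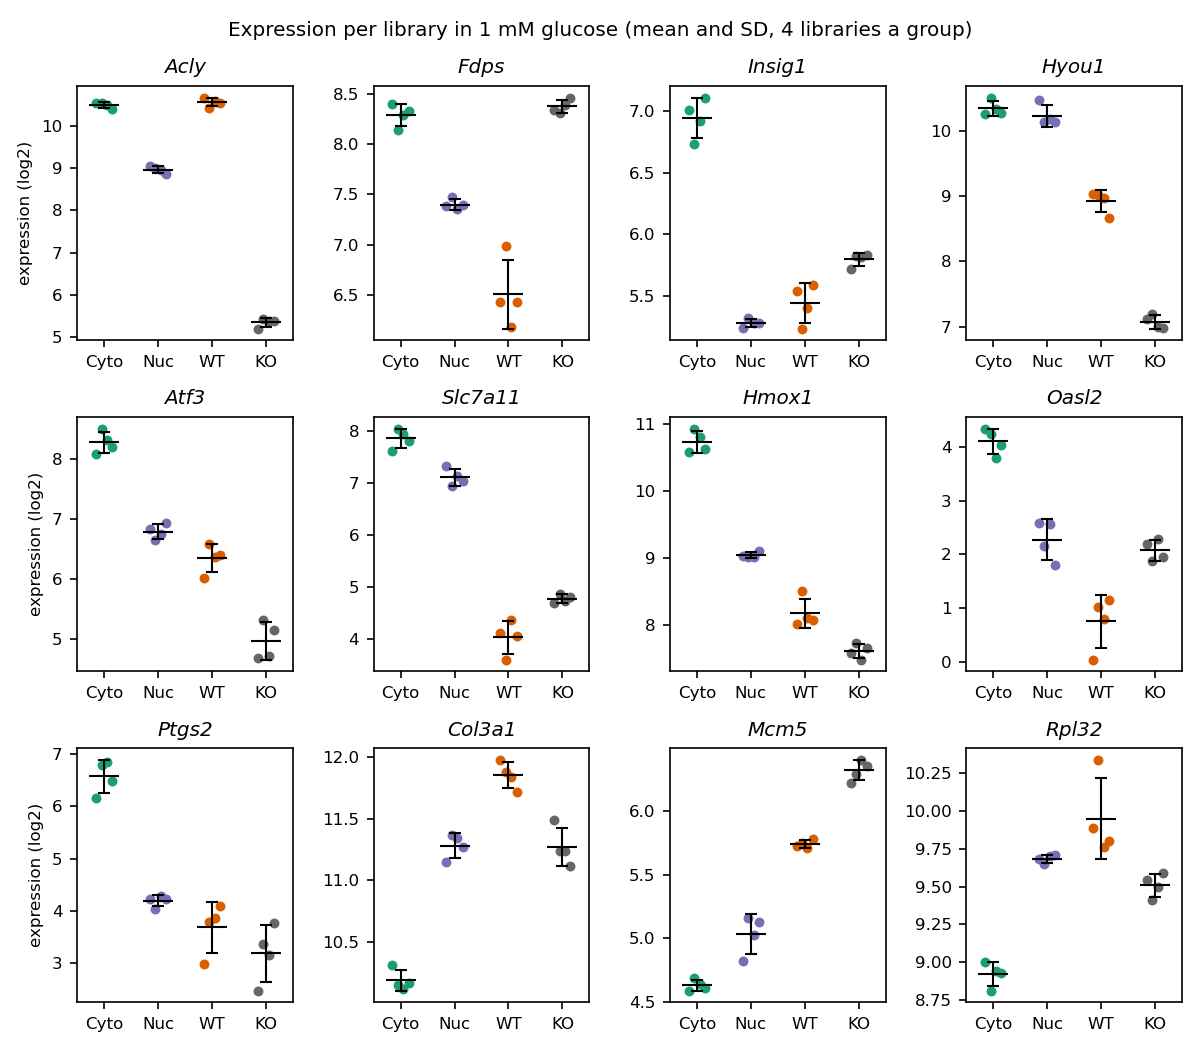
Expression (log2, y axis) of 12 genes in each of the 16 libraries in 1 mM glucose, by group (x axis), with mean and SD as bars. The Cyto libraries lie above all WT libraries for Fdps, Insig1, Hyou1, Atf3, Slc7a11, Hmox1, Oasl2 and Ptgs2 and below them for Col3a1, Mcm5 and Rpl32, and the 2 groups overlap for Acly.

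Genes of the ER folding machinery were higher in Cyto cells. Of 31 ER chaperones and disulfide isomerases 21 rose and 3 fell, with a median of 0.44. The ER stress response element (ERSE), bound by ATF6 and XBP1 with NF-Y, is the best-known promoter motif of these genes, so their promoters were searched. RefSeq promoters (250 bases before to 50 after the start, build GRCm38.p6) were matched by symbol for 26 of the 31 genes. The letters CCAAT, then 9 bases of any kind, then CCACG occurred, on either strand, in 8 of the 26 (30.8%), against 16 of 9279 genes of the table with a promoter (0.172%) and 0.119% of all 32851 promoters. All 8 rose, with a median of 1.01. Among the 18 with no match in this window 11 rose and 2 fell, with a median of 0.37. Over all 16 table genes with the letters, the 8 of this list included, 12 rose and 1 fell. The same letters were in 1 of 16 promoters of ER-associated degradation genes (6.25%) and in none of 32 of the ER translocation and vesicle transport list. The 8 windows are shown 5′ to 3′ on the gene's strand with the matched letters in capitals, because they belong to chaperone genes described next. They lie at chr2:34772005-34772063 (+) for Hspa5, chr10:86705513-86705676 (-) for Hsp90b1, chr8:84847055-84847113 (-) for Calr, chr14:118937807-118937865 (+) for Dnajc3, chr15:88819500-88819558 (+) for Creld2, chr13:12565662-12565720 (+) for Ero1b, chr11:50325780-50325838 (-) for Canx and chr12:17266471-17266529 (+) for Pdia6.
Hspa5: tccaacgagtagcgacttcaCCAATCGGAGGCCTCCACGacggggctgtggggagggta
Hsp90b1: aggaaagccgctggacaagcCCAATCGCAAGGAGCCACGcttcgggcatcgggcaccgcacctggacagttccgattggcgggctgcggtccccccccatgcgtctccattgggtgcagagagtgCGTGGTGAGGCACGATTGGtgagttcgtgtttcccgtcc
Calr: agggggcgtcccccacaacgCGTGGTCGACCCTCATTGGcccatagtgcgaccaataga
Dnajc3: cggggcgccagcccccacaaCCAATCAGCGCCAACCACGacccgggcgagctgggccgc
Creld2: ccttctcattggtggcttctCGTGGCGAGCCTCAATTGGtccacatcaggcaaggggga
Ero1b: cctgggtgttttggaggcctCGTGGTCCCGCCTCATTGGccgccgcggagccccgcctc
Canx: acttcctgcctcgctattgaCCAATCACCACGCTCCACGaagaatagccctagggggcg
Pdia6: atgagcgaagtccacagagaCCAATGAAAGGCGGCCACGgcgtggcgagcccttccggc

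Hspa5, the ER's main Hsp70 chaperone (BiP), read 12.94, 13.25, 13.13 and 13.10 in Cyto libraries and 11.98, 12.52, 12.02 and 11.75 in WT libraries. All Cyto libraries were the higher ones, by a log2 fold change of 1.04 ± 0.13 (SE; limma adjusted p = 6.23e-06), and in KO libraries Hspa5 read only 9.60 to 10.03. Hyou1, a nucleotide exchange factor of BiP, read 10.27, 10.52, 10.34 and 10.28 in Cyto libraries against 9.03, 9.02, 8.98 and 8.67 in WT libraries (log2 1.43 ± 0.09, limma adjusted p = 2.01e-09). Hsp90b1, the ER Hsp90, rose by 1.15 ± 0.13, Dnajc3, a BiP co-chaperone, by 0.99 ± 0.09, and Ero1b, which re-oxidises disulfide isomerases, by 1.13 ± 0.12. Calr and Canx, the lectin chaperones of new glycoproteins, rose by 0.63 ± 0.10 and 0.25 ± 0.09, although Canx did not pass without Cyto library 2 (limma adjusted p = 0.0823) or without WT library 4 (0.0688). Creld2 and Sdf2l1, 2 small ER stress proteins, rose by 1.10 ± 0.18 and 1.19 ± 0.18, and Pdia6, an isomerase, by 0.44 ± 0.12. Txndc5, another isomerase, rose by 0.56 ± 0.05. The 3 genes that fell were Fkbp10, a collagen prolyl isomerase (-0.65 ± 0.07), Pdia5 and Fkbp14. For several genes that rose, Nuc libraries lay near or above the Cyto libraries. Hspa5 and Hyou1 averaged 12.81 and 10.24 in Nuc libraries, against 13.1 and 10.35 in Cyto and 12.07 and 8.93 in WT libraries. Creld2, Pdia6 and Canx averaged 9.22, 9.78 and 10.46 in Nuc libraries, above Cyto means of 9.04, 9.56 and 10.34. Txndc5 went the other way, with a Nuc mean of 8.36 below its WT mean of 8.59.

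The sensors and transcription factors of the stress responses rose with them. Of 22 genes of the unfolded protein and integrated stress responses 15 rose and 1 fell, with a median of 0.46. Atf3, a stress-induced transcription factor, read 8.09, 8.51, 8.32 and 8.20 in Cyto libraries and 6.02, 6.59, 6.37 and 6.40 in WT libraries, 3.83-fold higher (log2 1.94 ± 0.14, limma adjusted p = 7.29e-09). Eif2ak3, the ER kinase PERK, rose by 1.27 ± 0.07 and Atf6, the sensor cleaved in the Golgi, by 1.00 ± 0.09. Nupr1, a small stress-induced regulator, and Ppp1r15a, which leads the phosphatase to eIF2alpha, rose by 1.37 ± 0.11 and 1.36 ± 0.19. Among 41 genes of ER translocation and vesicle transport 25 rose and 4 fell. Sec24d, a COPII cargo adaptor, read 8.28, 8.30, 8.38 and 8.34 in Cyto libraries against 7.22, 7.21, 7.13 and 7.10 in WT libraries (log2 1.16 ± 0.05, limma adjusted p = 2.62e-11). Srpra, the signal recognition particle receptor, and Ssr3, a translocon subunit, rose by 0.98 ± 0.05 and 0.90 ± 0.07.

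In ER-associated degradation, which returns misfolded proteins to the cytosol, 13 of 21 genes rose and 2 fell, among them Fam8a1 (0.58 ± 0.07) and the ubiquitin-conjugating enzyme gene Ube2j1 (0.46 ± 0.06). N-glycan assembly had 14 of 32 genes higher and 5 lower, with a median of 0.23. In the hexosamine list, which makes UDP-GlcNAc for glycosylation, 3 of 9 rose and none fell: Gfpt1, the rate-limiting step, by 0.60 ± 0.10, Uap1 by 0.57 ± 0.09, and Gnpnat1. Cytosolic heat shock genes were mixed, with 7 of 18 higher and 5 lower. Hsph1, an Hsp110, rose by 1.71 ± 0.13 and Dnajb1, an Hsp40, by 1.16 ± 0.10, while Hsp90ab1, the constitutive cytosolic Hsp90, fell by 0.84 ± 0.05.

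Amino acid carriers held some of the highest fold changes in the table. Of 15 carriers and Asns, 11 rose and none fell, with a median of 0.64. Slc7a11, the cystine-glutamate exchanger, read 7.61, 8.04, 7.94 and 7.81 in Cyto libraries and 4.11, 3.60, 4.37 and 4.06 in WT libraries. That is 14.1-fold (log2 3.82 ± 0.13, limma adjusted p = 1.04e-12), and the Nuc libraries, at 6.93 to 7.32, and the KO libraries, at 4.70 to 4.87, lay between them. Slc1a3, a glutamate and aspartate carrier, read 7.31, 7.32, 7.25 and 7.31 in Cyto libraries against 3.93, 3.76, 3.96 and 4.30 in WT libraries, 9.9-fold higher (log2 3.31 ± 0.09). Slc38a4, a carrier of neutral amino acids, rose by 3.24 ± 0.14, to 4.14 to 4.46 in Cyto libraries against 0.65 to 1.42 in WT libraries, yet its KO libraries were higher still at 5.84 to 5.95. Slc1a5, the main glutamine carrier, rose by 0.98 ± 0.05. Asns, the asparagine synthetase, read 9.14, 9.10, 9.07 and 9.10 in Cyto libraries and 8.84, 9.34, 8.81 and 8.83 in WT libraries (log2 0.15 ± 0.09, limma adjusted p = 0.194). WT library 2 alone lay above the Cyto libraries for Asns, and without it the fold change was 0.28 (limma adjusted p = 0.000109).

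Enzymes of serine, proline and one-carbon metabolism went with the carriers, 9 of 16 higher and 2 lower. Cth, which makes cysteine from cystathionine, rose by 1.46 ± 0.08, Psph, the last step to serine, by 1.06 ± 0.12, and Aldh1l2, a mitochondrial folate enzyme, by 1.26 ± 0.14. Of 20 aminoacyl-tRNA synthetases 10 rose and 4 fell; Nars1 rose by 0.91 ± 0.07 and Aars1 fell by 0.44 ± 0.05. In the list of NRF2 targets and glutathione genes, 9 of 19 rose and 4 fell, with a median of 0.15. Hmox1, haem oxygenase, read 10.58, 10.93, 10.81 and 10.62 in Cyto libraries and 8.02, 8.50, 8.11 and 8.07 in WT libraries, 5.9-fold higher (log2 2.56 ± 0.10, limma adjusted p = 2.96e-12). Gclm and Gclc, the subunits of the first enzyme of glutathione synthesis, rose by 1.98 ± 0.10 and 1.19 ± 0.07. Txnrd1, a thioredoxin reductase, rose by 0.87 ± 0.06 and Osgin1 by 1.5 ± 0.10, whereas Nqo1, a quinone reductase often used to mark NRF2 activity, fell by 0.52 ± 0.12. The core letters of the antioxidant response element, TGAC, then 3 bases of any kind, then GC, on either strand, occurred in 5 of the 15 promoters matched for this list (33.3%), against 1579 of 9279 table genes (17.0%) and 5 of 10 for the amino acid carriers (50.0%). Of the 5 NRF2 list genes with the letters 3 rose and 1 fell, and of the 10 without them 2 rose and 3 fell. Over all 1579 table genes with the letters 418 rose and 404 fell.

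Interferon-stimulated genes had the highest median of all lists with at least 5 measured members. Of 23 measured, 19 rose and 2 fell, with a median of 1.28. These genes encode antiviral sensors and effectors and are switched on by interferon signalling at the interferon-stimulated response element. The core letters of that element, TTTC, then 2 bases of any kind, then TTTC, on either strand, occurred in 7 of the 14 with a RefSeq promoter (50.0%), against 343 of 9279 table genes (3.7%) and 3.44% of all promoters; some matches overlap one another. Of the 7, 6 rose and 1 fell, and of the 7 with no match in this window 5 rose and 1 fell. Over all 343 table genes with the letters 110 rose and 92 fell. The windows are shown in the same way (build GRCm38.p6), those of the genes that rose and that of Ifih1, which fell; the Ifit3b window has the same letters as that of Ifit3 and is not repeated. They lie at chr4:156200855-156200916 (-) for Isg15, chr5:120907510-120907565 (-) for Oas1a, chr19:34583353-34583436 (+) for Ifit3, chr19:34640765-34640833 (+) for Ifit1, chr10:128270256-128270305 (+) for Stat2 and chr2:62646206-62646243 (-) for Ifih1.
Isg15: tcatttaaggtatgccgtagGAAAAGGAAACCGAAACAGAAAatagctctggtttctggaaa
Oas1a: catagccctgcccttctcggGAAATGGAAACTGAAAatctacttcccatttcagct
Ifit3: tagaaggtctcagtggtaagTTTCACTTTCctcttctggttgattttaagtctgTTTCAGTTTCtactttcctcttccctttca
Ifit1: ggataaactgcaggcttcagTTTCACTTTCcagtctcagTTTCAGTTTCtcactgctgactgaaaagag
Stat2: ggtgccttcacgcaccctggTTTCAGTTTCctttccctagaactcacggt
Ifih1: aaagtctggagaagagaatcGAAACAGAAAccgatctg

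Oasl2, a relative of the oligoadenylate synthetases, read 4.34, 4.24, 3.80 and 4.03 in Cyto libraries and 0.04, 1.02, 0.80 and 1.16 in WT libraries, 10.2-fold higher (log2 3.35 ± 0.23, limma adjusted p = 3.02e-09). Nuc libraries, at 1.80 to 2.58, and KO libraries, at 1.88 to 2.29, lay between them. Ifi44 read 5.81, 6.26, 6.19 and 6.07 in Cyto libraries against 3.31, 3.39, 3.30 and 3.12 in WT libraries (log2 2.80 ± 0.12). Oas1a and Isg15, a ubiquitin-like modifier, rose by 1.99 ± 0.29 and 1.68 ± 0.23. Ifit1, which binds foreign RNA, rose by 1.70 ± 0.17 and Ifit3 by 1.51 ± 0.11. Ifit3 and Ifit3b are near-identical copies, so their split of reads is uncertain. The RNA sensor gene Rigi rose by 0.95 ± 0.07, and the transcription factor gene Stat2 by 0.99 ± 0.09. Ifih1, another RNA sensor, read 0.77, 0.70, 0.60 and 1.08 in Cyto libraries against 2.37, 2.18, 2.14 and 1.78 in WT libraries, so it fell (log2 -1.33 ± 0.20). Ifit2, the other gene that fell, changed by -0.25 ± 0.08 and did not pass when the Cyto and WT libraries were fitted alone (limma adjusted p = 0.0589). Antigen presentation genes were divided, 3 of 13 higher and 3 lower, and H2-K1, a class I heavy chain with close paralogs, rose by 3.24 ± 0.26. For H2-K1 the KO libraries were higher still, at 6.26 to 6.36, against 4.55 to 4.76 in Cyto and -0.50 to 1.29 in Nuc libraries. Of 10 leukocyte markers 2, Csf1r and Cd68, were listed, at a summed 1.04 to 1.66 CPM in Cyto libraries and 1.29 to 2.33 CPM in WT libraries, and Ptprc was not listed.

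Secreted inflammatory factors and complement genes differed in both directions. Of 15 inflammatory genes 7 rose and 4 fell, with a median of 0.59. Ptgs2, the inducible cyclooxygenase, read 6.16, 6.80, 6.86 and 6.49 in Cyto libraries and 2.98, 3.78, 3.86 and 4.09 in WT libraries (log2 2.90 ± 0.25, limma adjusted p = 5.64e-08). Il6 rose by 2.79 ± 0.34 from WT levels between -0.52 and 0.75, and Csf1, a macrophage growth factor, by 1.13 ± 0.05. Tnfaip3, a brake on NF-kappaB, fell by 0.93 ± 0.18. Among 13 complement genes 6 rose and 4 fell. C3, the central complement protein, read 8.68, 8.90, 8.88 and 8.83 in Cyto libraries against 5.87, 5.65, 5.98 and 5.99 in WT libraries, 7.72-fold higher (log2 2.95 ± 0.11), and only 3.07 to 3.59 in Nuc libraries. C4b, which acts before C3, was 11.8-fold higher (log2 3.56 ± 0.17), and Cd55, which protects cells from complement, fell by 1.05 ± 0.07.

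Genes downstream of ERK were mixed. Of 13 ERK feedback genes 5 rose and 2 fell, where 25.7% of all genes rose and 27.5% fell. Spry4, a feedback inhibitor, rose by 2.35 ± 0.18 and Etv5, an ETS factor, by 1.73 ± 0.06, at 7.12, 7.17, 7.10 and 6.96 in Cyto libraries against 5.37, 5.27, 5.49 and 5.31 in WT libraries. The AP-1 gene Fosl1 rose by 2.13 ± 0.14, within a list of 22 immediate early genes of which 7 rose, or 4 without Cyto library 2, and 3 fell. YAP and TEAD targets were split, 4 of 18 higher and 4 lower (7 without WT library 2), and Ankrd1 rose by 3.51 ± 0.28 from near 0 in WT libraries.

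Collagens and the matrix around them were lower in Cyto cells. Of 20 collagen genes 16 fell and 2 rose, with a median of -0.71. Col3a1, a fibrillar collagen, read 10.31, 10.15, 10.12 and 10.17 in Cyto libraries and 11.98, 11.88, 11.84 and 11.72 in WT libraries. The groups were 3.17-fold apart (log2 -1.67 ± 0.08, limma adjusted p = 5.64e-11). Col1a1, the main chain of collagen I, read 13.33, 13.12, 13.11 and 13.02 in Cyto libraries against 14.40, 14.40, 14.44 and 14.34 in WT libraries (log2 -1.25 ± 0.08). Col4a1, of basement membrane, fell by 1.57 ± 0.09 and Col5a1, which sets fibril width, fell by 1.29 ± 0.06. Summed over the list, collagen made up 2.46% ± 0.142 of CPM in Cyto libraries, 4.34% ± 0.245 in Nuc libraries, 5.21% ± 0.209 in WT libraries and 3.09% ± 0.264 in KO libraries (SD, n = 4 each). The exceptions were Col18a1 (1.29 ± 0.11), the source of endostatin, and Col12a1. Of the 12 fibroblast markers 3 are collagens of this list, and the part of cell makeup in these values was not tested.

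Other matrix genes followed. In collagen processing 3 of 17 genes rose and 10 fell; Lox, the crosslinking oxidase, fell by 0.88 ± 0.08 and P3h2, a prolyl hydroxylase, fell by 2.69 ± 0.62. Plod2, a lysyl hydroxylase outside that list, read 4.13, 4.31, 4.22 and 4.28 in Cyto libraries against 6.05, 5.92, 6.02 and 5.95 in WT libraries (log2 -1.75 ± 0.08, limma adjusted p = 2.4e-11). Of 26 genes of elastic fibres, proteoglycans and matrix glycoproteins 5 rose and 15 fell. Fbn2, a fibrillin, read 1.49, -1.07, -3.59 and 1.55 in Cyto libraries and 6.61, 5.72, 6.62 and 6.75 in WT libraries, and at most 1.5 in Nuc and KO libraries. Elastin (Eln) fell by 2.05 ± 0.25, Fbln2 by 1.01 ± 0.06 and Sparc, a collagen-binding protein, by 0.81 ± 0.06. Dcn, a proteoglycan that binds collagen fibrils, rose by 1.10 ± 0.09, but its WT libraries were the lowest of the 4 groups at 2.79 to 2.94.

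Metalloproteases were mixed, with 6 of 22 higher, or 3 without Cyto library 4, and 9 lower, and the gelatinase gene Mmp2 had the lowest value, at 9.93, 9.78, 9.79 and 9.77 in Cyto libraries against 11.73, 11.77, 11.74 and 11.65 in WT libraries (log2 -1.91 ± 0.06, limma adjusted p = 5.07e-13). Integrin and basement membrane genes were lower in number, 17 of 23 against 2 higher, with a median of -0.45. Itgb8, whose integrin releases active TGF-beta, fell by 2.32 ± 0.17 and Lama5 by 1.11 ± 0.08, while Lama4, another laminin chain, rose by 1.13 ± 0.08. Among 22 contractile genes 2 rose and 11 fell. Myh10, a non-muscle myosin, read 10.18, 9.85, 9.85 and 9.92 in Cyto libraries against 10.88, 10.92, 10.81 and 10.86 in WT libraries (log2 -0.91 ± 0.08). Acta2, smooth muscle actin and the usual myofibroblast marker, fell by 0.68 ± 0.10, and Actg2 rose by 1.55 ± 0.15.

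In TGF-beta and BMP signalling 7 of 25 genes rose and 10 fell. The ligand gene Tgfb1 read 4.30, 3.94, 4.15 and 4.14 in Cyto libraries against 5.44, 5.58, 5.47 and 5.45 in WT libraries (log2 -1.35 ± 0.09). Grem1, a secreted BMP inhibitor, fell by 1.55 ± 0.08. The latent TGF-beta binding proteins moved apart, Ltbp1 falling by 1.04 ± 0.06 and Ltbp2 rising by 2.83 ± 0.13. In the IGF axis 8 of 14 genes fell, or 5 without WT library 1, and none rose; the binding proteins Igfbp5 and Igfbp7 fell by 1.65 ± 0.20 and 1.35 ± 0.08. Of 20 Wnt genes 5 rose and 7 fell, with Fzd2, a receptor, at -1.20 ± 0.08, Sfrp1, a secreted inhibitor, at -2.14 ± 0.17 and Axin2, the standard Wnt target, at -2.17 ± 0.31.

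Proliferation genes were lower in Cyto cells. Of 32 genes of DNA replication and nucleotide synthesis 22 fell and none rose, with a median of -0.52, and of 26 genes of G2 and mitosis 18 fell and none rose, with a median of -0.62. Mcm5, a subunit of the replicative helicase, read 4.59, 4.69, 4.64 and 4.61 in Cyto libraries and 5.72, 5.75, 5.71 and 5.78 in WT libraries (log2 -1.11 ± 0.07, limma adjusted p = 1.69e-09). Without WT library 2, 2 replication genes and 1 mitosis gene were called higher. Mcm4 fell by 0.93 ± 0.06, Rrm1, a subunit of ribonucleotide reductase, by 0.85 ± 0.09, and Tk1, thymidine kinase, by 1.38 ± 0.18. The proliferation marker Mki67 read 4.81, 4.92, 4.94 and 4.89 in Cyto libraries, 6.26 to 6.47 in Nuc libraries, 6.01, 5.45, 6.12 and 6.17 in WT libraries and 6.85 to 7.15 in KO libraries. The Cyto libraries were the lowest of the 4 groups (Cyto against WT, log2 -1.05 ± 0.12). Aurkb, a mitotic kinase, fell by 1.09 ± 0.11. The list of CDK inhibitors, D cyclins and p53 targets was divided, 6 of 20 higher and 8 lower, and Cdkn1b, the CDK inhibitor p27, fell by 0.90 ± 0.05.

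Ribosomal protein genes were lower almost throughout. Of 80 cytosolic ribosomal protein genes 77 fell and 1 rose, with a median of -0.69. Rpl32 read 9.0, 8.81, 8.94 and 8.93 in Cyto libraries and 9.89, 10.34, 9.76 and 9.80 in WT libraries (log2 -1.03 ± 0.09, limma adjusted p = 1.24e-07). Rpl24 fell by 0.99 ± 0.09, and the 1 gene that rose was Rpl34 (0.40 ± 0.11), which has pseudogene copies that may take part of its reads. The copy Rpl34-ps1 fell by 1.70 ± 0.12, with means of 4.96 in Cyto and 6.66 in WT libraries. How reads were split between Rpl34 and its copies was not tested. The list's summed share of CPM was 4.71, 4.32, 4.36 and 4.51% in Cyto libraries and 6.94, 9.94, 6.32 and 6.40% in WT libraries. WT library 2 had the highest share, and without it 77 genes still fell, with a median of -0.56. Nuc libraries averaged 4.79% ± 0.0688 and KO libraries 5.40% ± 0.143 (SD, n = 4 each), so the WT libraries were the highest group.

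Respiratory chain genes were lower as well. Of 69 nuclear-encoded genes 37 fell and 2 rose (8 without WT library 2), with a median of -0.29; Uqcrh, of complex III, fell by 1.41 ± 0.13 and Cox4i1, of complex IV, by 0.92 ± 0.11. Of the 13 genes on the mitochondrial genome 9 fell, or 3 under quantile normalization, and none rose. Their summed share was 0.937, 0.955, 1.06 and 0.875% in Cyto libraries and 1.31, 1.20, 1.26 and 1.22% in WT libraries, or 0.958% ± 0.0786 and 1.25% ± 0.0484 (SD, n = 4 each). The groups did not overlap, and the exact two-sided permutation test gave p = 0.0286, the smallest that 4 against 4 libraries allow. mt-Nd1, of complex I, fell by 0.58 ± 0.08 and mt-Nd6 by 0.84 ± 0.14. Transcript length moved with these results. Genes with transcripts under 750 bases had a median of -0.25, with 9.72% of them higher and 43.3% lower, and genes of 4500 bases or more had a median of 0.09, with 30.2% higher and 20.3% lower. With each library's trend on length removed, an alternative chosen after seeing the data, 77 ribosomal protein genes fell (median -0.62), 39 respiratory genes fell and 6 mitochondrially encoded genes fell.

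**Figure D3:**
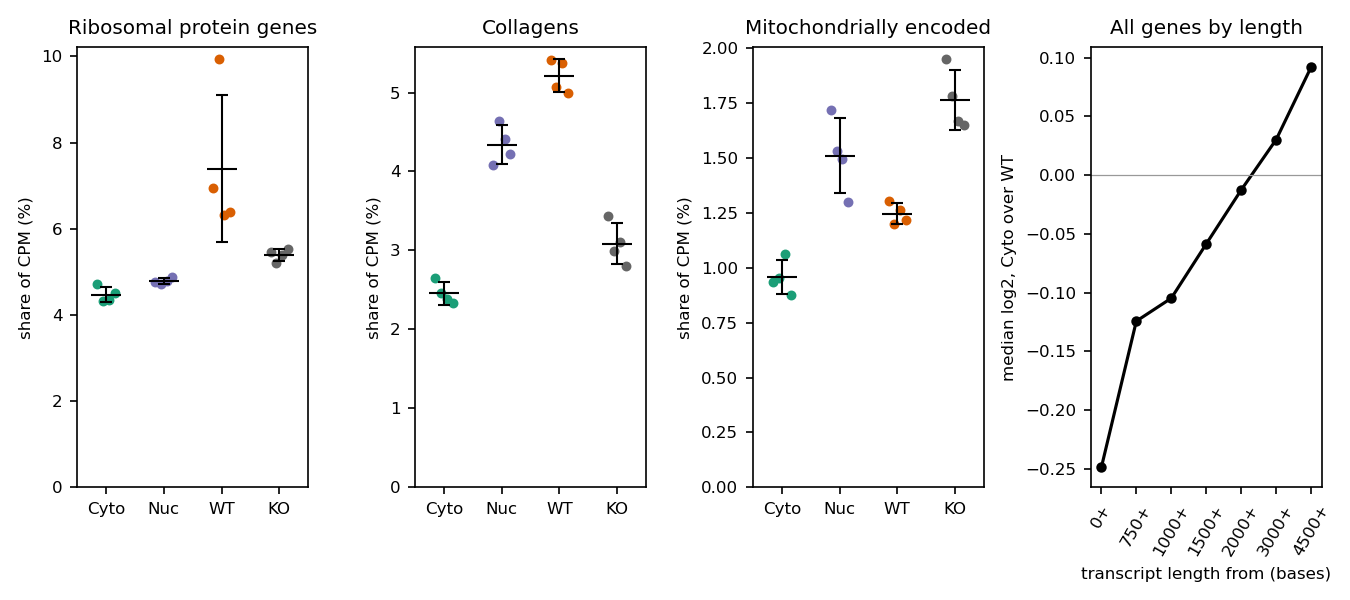
Summed share of CPM (%, y axis) of ribosomal protein genes, collagens and mitochondrially encoded genes in each library by group, with mean and SD, and on the right the median log2 fold change of Cyto over WT (y axis) of all genes by transcript length (x axis, bases). Cyto libraries have lower shares than WT libraries in all 3 lists, and the median runs from -0.25 for the shortest genes to 0.09 for the longest.

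Among genes that averaged no less than the median gene over the 16 libraries (5.02), Gpr141, an orphan G protein-coupled receptor outside the lists, had the highest fold change. It read 6.19, 6.49, 6.38 and 6.44 in Cyto libraries against 2.55, 2.02, 2.34 and 2.69 in WT libraries, 15.7-fold higher (log2 3.98 ± 0.12, limma adjusted p = 2.36e-13). Nuc and KO libraries were also high, at 6.61 to 6.82 and 5.64 to 6.02, so the WT libraries stood alone as the low group. Stard5, a sterol carrier known as an ER stress target, rose by 2.16 ± 0.08, Nnmt, which methylates nicotinamide, by 2.01 ± 0.12, Fibin by 2.08 ± 0.06 and the axon guidance ligand Slit3 by 2.09 ± 0.13. At the other end were Mgp, an inhibitor of calcification (-2.14 ± 0.13), Pi15 (-1.95 ± 0.11), Ifi30, a lysosomal thiol reductase (-1.73 ± 0.09), and Fstl1, a secreted glycoprotein (-1.64 ± 0.07). In these 4 genes all Cyto libraries were the lowest of the 16.

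Some genes were near silent in 1 group, with all 4 libraries below 0, and above 2 in all 4 of the other. Among the 12053 genes, 14 such called genes were near silent in WT cells and 4 in Cyto cells, with the symbols named above passed over. Naalad2, a peptidase gene, read 4.26 to 4.41 in Cyto libraries and -3.59 to -2.52 in WT libraries, where -3.59 is the lowest value in the table, and it read 3.58 to 4.65 in Nuc and KO libraries. Rgl3 read 2.76 to 3.10 in Cyto libraries, and all 4 WT libraries were at that lowest value. In Nuc and KO libraries Rgl3 read 2.95 to 3.27 and 3.56 to 3.66. The homeobox gene Rhox5 read 6.01 to 6.20 in Cyto libraries against -1.70 to -0.45 in WT libraries, with 0.41 to 0.98 in Nuc libraries and 6.25 to 6.41 in KO libraries. Adm2, a peptide hormone gene, read 4.30 to 4.74 in Cyto libraries and -3.01 to -1.29 in WT libraries. Pcdh10, a protocadherin, read 2.51 to 3.58 in Cyto libraries and -3.59 to -2.54 in WT libraries. Nuc libraries read 3.38 to 3.62 for Adm2 and 1.20 to 2.00 for Pcdh10, and KO libraries -0.26 to 1.07 and -3.27 to 0.07. Of the genes near silent in Cyto cells, Gpm6b, a proteolipid, read -0.83 to -0.37 in Cyto libraries against 3.39 to 3.65 in WT libraries. Pla2g7, a lipoprotein-associated phospholipase, read -2.16 to -1.53 in Cyto libraries against 2.09 to 2.38 in WT libraries. Nuc libraries were near silent for Gpm6b and Pla2g7 as well, at -2.02 to -0.82 and -3.59 to -2.0. KO libraries read 5.12 to 5.3 for Gpm6b and -0.1 to 0.96 for Pla2g7. Prr32 read -1.42 to -0.22 in Cyto libraries and 2.43 to 3.09 in WT libraries, and all 4 KO libraries were at the lowest value.

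Set beside 10 mM glucose, the Cyto against WT comparison shared part of its calls. In 10 mM glucose, where 3 Cyto and 4 WT libraries had values, 4033 of 12791 genes were called (31.5%), 2040 higher (15.9%) and 1993 lower (15.6%). The comparisons share no library, but glucose and batch cannot be told apart in their difference. Of 11931 genes in both tables, 6350 were called in 1 mM and 3924 in 10 mM glucose. Calls in the same direction numbered 2209, which is 34.8% of the first and 56.3% of the second, and 435 were opposite. The difference of the fold change between media was itself tested in 1 fit over 31 libraries: 3545 genes passed (29.7%), 1690 with the higher value in 1 mM glucose (14.2%) and 1855 with the lower (15.5%).

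**Figure D4:**
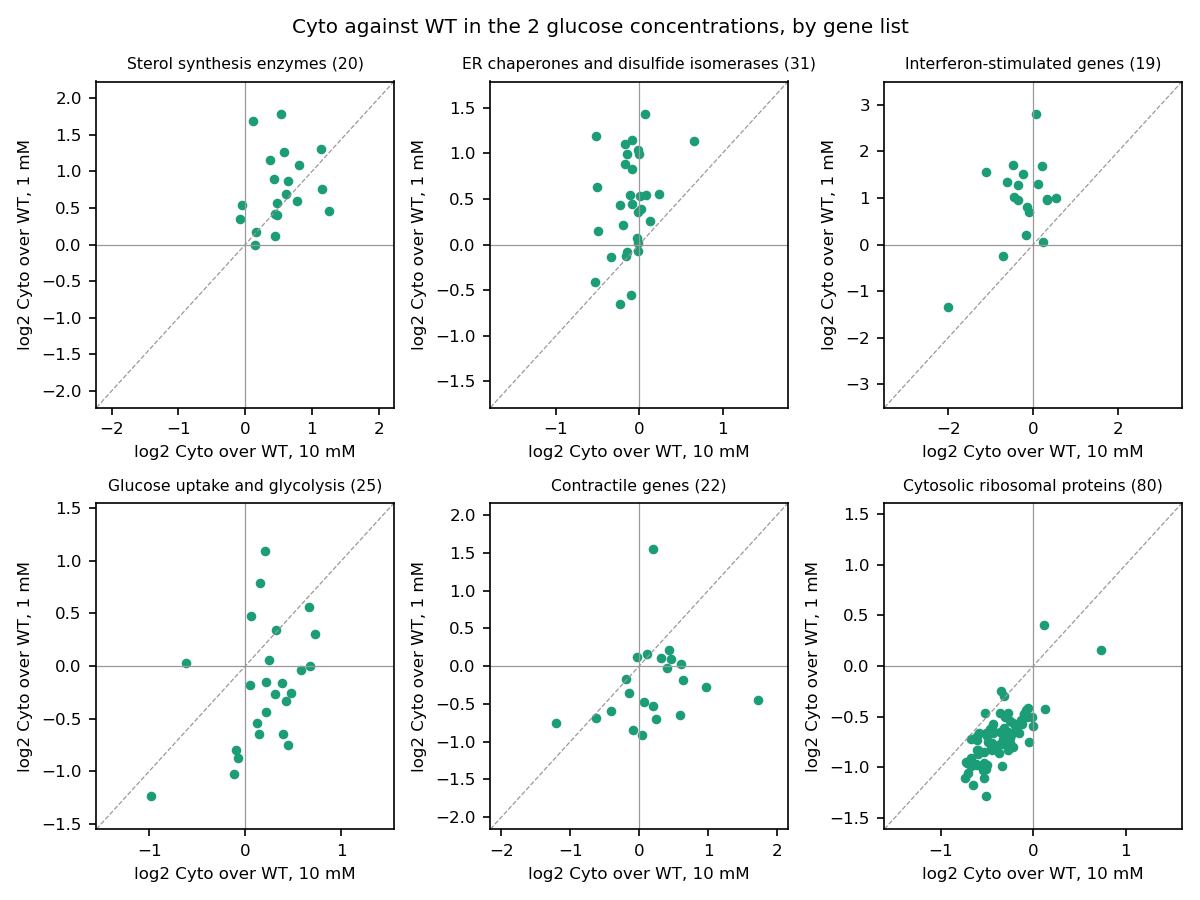
Log2 fold change of Cyto over WT in 1 mM glucose (y axis) against 10 mM glucose (x axis) for the members of 6 gene lists present in both tables (number in brackets), with equality as a dashed line. Sterol enzymes and ribosomal protein genes lie to the same side in both media, while most ER chaperones and interferon-stimulated genes lie above 0 in 1 mM and near or below 0 in 10 mM glucose.

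Sterol synthesis rose in both media. In 10 mM glucose 15 of the 20 enzymes rose and none fell, with a median of 0.47, and the difference between media passed for 7 enzymes that were higher in 1 mM glucose and 1 that was lower. Cyp51 had a log2 fold change of 1.15 ± 0.07 in 1 mM and 0.38 ± 0.07 in 10 mM glucose. Ribosomal protein genes fell in both, 77 in 1 mM and 52 in 10 mM glucose, collagens likewise, 16 and 13, and G2 and mitosis genes, 18 and 14. For these lists the difference passed with a lower value in 1 mM glucose for 19, 12 and 13 genes and with a higher value for 0, 3 and 2.

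ER folding genes differed between media. In 10 mM glucose 2 of 31 ER chaperones rose and 8 fell, with a median of -0.09, and the difference passed for 19 genes that were higher and 2 that were lower in 1 mM glucose. Hyou1 had a log2 fold change of 1.43 ± 0.09 in 1 mM and 0.07 ± 0.06 in 10 mM glucose (limma adjusted p in 10 mM = 0.426). Herpud1, an ER membrane protein of degradation, had 0.64 ± 0.09 in 1 mM and -0.41 ± 0.07 in 10 mM glucose, and Ssr3 0.90 ± 0.07 in 1 mM and 0.14 ± 0.06 in 10 mM glucose. ER translocation genes passed the difference in 23 of 41 cases, all higher in 1 mM glucose, and amino acid carriers in 10 of 15, all higher. For Slc1a3 the fold changes were 3.31 ± 0.09 in 1 mM and 0.82 ± 0.14 in 10 mM glucose, and for Hmox1 they were 2.56 ± 0.10 in 1 mM and -0.32 ± 0.09 in 10 mM glucose.

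Of 19 interferon-stimulated genes in both tables, 1 rose and 3 fell in 10 mM glucose, with a median of -0.18, and the difference passed for 14, all higher in 1 mM glucose. Glycolysis turned as well: 11 of 26 genes rose and 1 fell in 10 mM glucose, with a median of 0.21, and of 25 genes in both tables the difference passed for 15 that were lower and 2 that were higher in 1 mM glucose. Pfkp, a phosphofructokinase subunit, had -0.75 ± 0.10 in 1 mM and 0.44 ± 0.08 in 10 mM glucose. Among contractile genes 10 of 22 rose and 4 fell in 10 mM glucose, and 12 passed the difference with a lower value in 1 mM glucose; Tagln, an actin-binding protein of smooth muscle, had -0.44 ± 0.15 in 1 mM glucose, against 1.73 ± 0.14 in 10 mM glucose. Mitochondrially encoded genes rose in 6 and fell in none of 13 in 10 mM glucose, and 8 passed the difference with a lower value in 1 mM glucose.

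Single genes with the largest differences included pairs of opposite sign. Lama4 had a log2 fold change of 1.13 ± 0.08 in 1 mM and -2.17 ± 0.09 in 10 mM glucose. Slit3 had 2.09 ± 0.13 in 1 mM and -0.92 ± 0.21 in 10 mM glucose, and Ptx3, a secreted pattern-recognition protein, 0.71 ± 0.09 in 1 mM and -1.35 ± 0.10 in 10 mM glucose. The BMP inhibitor Grem1 had -1.55 ± 0.08 in 1 mM and 0.95 ± 0.06 in 10 mM glucose, and Col8a1, a short-chain collagen, -1.19 ± 0.11 in 1 mM and 1.07 ± 0.08 in 10 mM glucose. Acly itself had -0.06 ± 0.07 in 1 mM and -0.47 ± 0.10 in 10 mM glucose, so the Acly transcript was nearer to WT in 1 mM glucose (difference 0.41 ± 0.12, limma adjusted p = 0.00967).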

How the data were processed

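RNA from MEFs was made into libraries and sequenced by a service provider, per the labels' protocols. The authors deposited 1 table of log2 values per medium; its values behave as log2 CPM with a small offset, since the linear values of each 1 mM library sum to 0.933 to 1.10 times what CPM would. Kallisto, edgeR, limma and build GRCm39 are named in the submitters' processing notes, without versions. Counts were not used here, so depth is unknown. Cyto sample 3 in 10 mM glucose, which the submitters left out, was not analysed here.

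Group means were fitted over the 16 libraries in 1 mM glucose with limma 3.58.1 in R 4.3.3 (prior variance following the mean), and the difference between media over 31 libraries and 11931 genes. The fit was tested on simulated data. Adjusted p-values cover all genes of a table; 1 row without a symbol was left out. The alternatives were other scalings, filters, weights, the replicate block and each library left out. Transcript lengths (GENCODE, GRCm38) matched 96.9% of genes.

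The members and the gene lists were chosen with earlier results of these data known. Named genes were the ends of the fold changes among called genes that averaged no less than the median gene and whose libraries do not overlap (10 in each direction), the 4 or fewer members of each list that had the lowest adjusted p, up to 5 near-silent genes per direction, and for the difference between media Acly, 5 genes at each end and, with values known, 1 from each of 17 lists. Genes with a printed promoter match were added. Fbn2, Col1a1, Fkbp10, Pmvk, Sdf2l1, Fasn, Asns, Elovl6, H2-K1, Ppp1r15a, Osgin1, Nqo1, Col18a1, Tgfb1, Slc2a3, Hk2, Tk1, Eln, P3h2, Ifit2, Rpl34, Ctsh, Pdk4, Cd55, Krt19, Tnfaip3, Mt2, Axin2, Suclg1, Srebf1, Srebf2 and Acta2 were chosen after their values were seen, as were genes named without a value. Some genes that met these rules are not reported here.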

Additional observations from a re-analysis of the deposited data

Results flagged for a closer look

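Among the genes described, Rpl34-ps1 aside, 341 groups of 4 libraries were searched for a library far from the other 3 by Dixon's ratio. Such a library was found in 18 groups. That rate is close to the 1 in 20 that chance gives for independent genes, but the libraries found were not spread evenly. Of these, 13 were WT library 2, the library that stood apart in the correlations. It was the high one for Pltp (8.81), Rpia (5.33), Nars1 (9.29), Aars1 (10.02), Mgp (9.30), Igfbp7 (8.46), mt-Nd6 (8.44), Hoxb9 (6.45), Asns (9.34) and Rpl34 (7.94). It was the low one for Aldh1l2 (8.32), Igfbp5 (4.34) and Fbn2 (5.72). WT library 4 was high for Lss (5.48) and low for Hyou1 (8.67). Cyto library 1 was high for Mmp2 (9.93) and low for Prr32 (-1.42), and Cyto library 3 was low for Slc1a3 (7.25). Without WT library 2, the 12 of these 13 genes that had been called kept their call and direction. Asns had a log2 fold change of 0.15 over all libraries (limma adjusted p = 0.194) and 0.28 without WT library 2 (limma adjusted p = 0.000109).

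The log2 fold change of Cyto over WT could be set beside 10 mM glucose for 182 of the genes described, Rpl34-ps1 aside. By limma's test of the difference, 146 of the 182 differed between media, while the share among all shared genes was 29.7%. Most of the 182 were chosen by their results in 1 mM glucose, by the difference itself or with values known. The choice favours genes that differ, so their share cannot be read against that of all genes. The differences given here are 1 mM minus 10 mM glucose, for Acly, the 5 genes at each end by the naming rule and 1 gene from each of 17 lists, chosen with values known. All 28 kept their call and direction in every alternative run, and glucose and batch cannot be told apart in them. The highest were Lama4 at 3.30 ± 0.12 (SE), Hmox1 at 2.88 ± 0.13, Slc1a3 at 2.48 ± 0.16, the receptor gene Lpar4 at 2.32 ± 0.11 and Adamts9, a metalloprotease, at 2.24 ± 0.17. The lowest were Grem1 at -2.50 ± 0.10, Col8a1 at -2.26 ± 0.14, Pmepa1, a TGF-beta target, at -1.96 ± 0.20, Sertad4 at -1.88 ± 0.11 and Tmem119, a membrane protein, at -1.87 ± 0.15. Of the genes taken from lists, those with a positive difference were Slit3 (3.01 ± 0.24), Ptx3 (2.05 ± 0.13), Postn (1.73 ± 0.09), Hyou1 (1.36 ± 0.11), Dnajb1 (1.35 ± 0.13), Cth (1.21 ± 0.13), Gfpt1 (1.06 ± 0.14), Herpud1 (1.06 ± 0.11), Cyp51 (0.78 ± 0.10) and Ssr3 (0.77 ± 0.09). Those with a negative one were Tagln (-2.17 ± 0.22), Igfbp7 (-1.53 ± 0.13), Creb3l1 of the unfolded protein response list (-1.37 ± 0.11), Pfkp (-1.19 ± 0.12), Cpt1a (-1.13 ± 0.12), Ccnd1 (-0.87 ± 0.08) and Mcm6 (-0.82 ± 0.09). In the heat shock list, from which Dnajb1 comes, 8 of 18 genes had a higher and 5 a lower value in 1 mM glucose. For Acly the difference was 0.41 ± 0.12.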

How the results depend on the processing

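Every alternative kept the counts of called genes within 1.5 times. In 1 mM glucose 6418 genes were called, and leaving out 1 library gave 5804 to 6932 (2806 to 3365 higher, 2998 to 3567 lower). For the difference between media 3545 genes were called, and leaving out 1 library gave 3170 to 3698. The share of mitochondrially encoded genes differed by -0.288 percentage points, by -0.203 as a share of each library's own sum and by -0.260 to -0.323 with 1 library left out. Of 2900 refitted fold changes of single genes, 2883 kept their direction and side of the threshold. Acly had the opposite sign under quantile normalization (0.27, limma adjusted p = 0.0214), and the cause was not tested. The other 16 concerned Canx, Fasn, Asns and Ifit2. Array weights gave 7194 calls and fitting Cyto and WT alone 5424. Removing length trends, chosen after seeing the data, gave 6873. Of 1904 refitted counts of list members, 131 moved by over 1.5 times, 122 of them from counts of 5 or fewer.

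With the replicate number as a block, 6296 genes were called in 1 mM glucose and 3658 for the difference between media. Same-numbered Cyto and WT libraries did not deviate together (correlations of -0.114, -0.182, 0.0276 and 0.00787). These values gave no sign that the numbers pair the libraries, but with 4 libraries a group they cannot exclude it. Depth is unknown, so no counting error could be given, and low values near -3.59 carry an offset that understates fold changes.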

Other observations

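Hox genes, which mark the body position a fibroblast came from, differed in both directions: 6 of 27 rose in Cyto cells and 12 fell, with a median log2 fold change of -0.28. Hoxa10 fell by 1.06 ± 0.07 (SE), Hoxb9 rose by 0.98 ± 0.07, and Hoxc13 read -2.67 to -1.39 in Cyto libraries against 0.98 to 1.49 in WT libraries. Among 8 imprinted genes 2 rose and 4 fell, and Sgce read 2.51, 2.35, 2.41 and 2.53 in Cyto libraries against 5.80, 6.07, 5.74 and 5.84 in WT libraries, with -1.22 to -0.28 in KO libraries. Of 15 fibroblast and perivascular surface genes 3 rose and 6 fell; Vcam1, an adhesion receptor, rose by 1.81 ± 0.07 and Cd248 fell by 1.54 ± 0.13. Guidance cues and receptors had 12 of 40 higher and 14 lower, and serpins 5 of 14 higher and 4 lower.

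Lysosome and V-ATPase genes were lower in number, 23 of 43 against 9 higher, with a median of -0.25. Ctsb, a cathepsin, fell by 0.66 ± 0.05 and Ctsh fell by 4.03 ± 0.35, while Ctsk, the collagen-degrading cathepsin, rose by 1.79 ± 0.07. Proteasome genes had 2 of 32 higher and 12 lower, and without WT library 2 they had 8 higher and 12 lower. Histone acetylation genes, the writers, erasers and readers of the mark, had 8 of 32 higher and 5 lower with a median of 0.06, and DNA methylation genes 3 of 10 in each direction. Hypoxia genes had 6 of 19 higher and 9 lower. Of 12 iron and metallothionein genes 2 rose and 4 fell, and the metallothionein gene Mt2 fell by 1.54 ± 0.14. Glucose-responsive MondoA and ChREBP genes had 3 of 6 higher and 1 lower.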
